A study of Mus musculus with 102 samples.

Results

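DNA methylation was compared between TET triple knockout (TTKO) mouse embryonic stem cells that had received Cre protein and mock-treated TTKO cells, in both cases 17 days after transduction. The comparison holds 6 of the 102 samples of the series, 3 Cre and 3 mock replicates, and was made over the 395 of 405 measured CpGs that had a methylation level in all 6 samples. All 6 carry mutations in the catalytic exons of Tet1, Tet2 and Tet3 in a C57BL6/J line with loxP sites around the catalytic exons of Dnmt3a and Dnmt3b. In the Cre samples the labels give Dnmt3a/3b as catalytic dead and in the mock samples, which received only the dialysis buffer of the Cre preparation, as intact. The parent line came from a homozygous clone and the TTKO line was picked from it as a clone, so the replicates share 1 genetic background. By the study's own account excision of the floxed exons was incomplete, so a Cre sample is a mixture that still holds some cells with intact alleles. The labels number the replicates without saying whether they were separate cultures, while the study calls them biological replicates, and p-values measure the spread between these samples.

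Methylation of the cytosine in a CpG is written by DNMT3A and DNMT3B, the de novo methyltransferases, and copied to the new strand after replication by DNMT1, the maintenance methyltransferase. TET enzymes oxidise 5-methylcytosine and so start its active removal. In cells without TET activity a CpG can lose methylation mainly when copying fails and no de novo enzyme repairs the gap. The question of the comparison is therefore how much of each CpG's methylation persists in dividing cells when DNMT1 works alone.

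Levels were read by bisulfite sequencing of PCR products (amplicons). The amplicons lie in low-methylated regions (LMRs, CpG-poor regulatory sites distant from promoters, many bound by transcription factors), unmethylated regions (UMRs, mostly CpG island promoters) and fully methylated regions (FMRs). LMRs were further named in the deposited list for being low in embryonic stem cells (ES-specific), in neuronal progenitors (NP-specific) or in both (constitutive), or for binding of the factors CTCF or REST. Read totals over the CpGs were 1921854 to 2905078 per sample, and the median coverage of the tested CpGs was 3533 to 5562 reads, with a lowest value of 198 reads. PCR reads are not independent molecules, so depth bounds counting error only. The spread between replicates had a median SD per CpG of 2.41 percentage points in Cre and 3.08 in mock samples.

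The regions on which the results turn are shown first, on the forward strand of mm9 with each CG in capitals. In the first pair nearly all methylation persisted. In the third every CpG was lower, and in the fourth neighbouring CpGs differed. The Zbtb20 stretch is chr16:43609644-43609845 in a coding exon of Zbtb20, a zinc finger transcriptional repressor, with 13 tested CpGs. The AU022751 stretch is chrX:5659117-5659288 in a coding exon of AU022751, with 12 tested CpGs, and belongs to the methylated CpG island of the set. The Cacng7 stretch is chr7:3349930-3350200 in an intron of Cacng7, an auxiliary subunit of AMPA receptors and calcium channels, with 6 tested CpGs. The Akap6 stretch is chr12:54133614-54133849 in an intron of Akap6, an anchoring protein of protein kinase A, with 4 tested CpGs.
Zbtb20: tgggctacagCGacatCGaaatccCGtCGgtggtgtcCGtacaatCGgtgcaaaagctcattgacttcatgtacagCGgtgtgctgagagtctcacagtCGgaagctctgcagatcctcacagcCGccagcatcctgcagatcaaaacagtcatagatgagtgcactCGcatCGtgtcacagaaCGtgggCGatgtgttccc
AU022751: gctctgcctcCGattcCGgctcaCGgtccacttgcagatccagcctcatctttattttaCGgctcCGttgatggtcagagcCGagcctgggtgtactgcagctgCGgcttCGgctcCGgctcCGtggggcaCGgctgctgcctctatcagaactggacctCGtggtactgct
Cacng7: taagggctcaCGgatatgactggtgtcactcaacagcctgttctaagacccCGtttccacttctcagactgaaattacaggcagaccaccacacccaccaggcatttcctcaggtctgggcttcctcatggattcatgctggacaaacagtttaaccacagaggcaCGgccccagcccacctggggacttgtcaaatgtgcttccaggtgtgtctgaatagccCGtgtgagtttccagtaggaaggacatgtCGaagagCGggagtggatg
Akap6: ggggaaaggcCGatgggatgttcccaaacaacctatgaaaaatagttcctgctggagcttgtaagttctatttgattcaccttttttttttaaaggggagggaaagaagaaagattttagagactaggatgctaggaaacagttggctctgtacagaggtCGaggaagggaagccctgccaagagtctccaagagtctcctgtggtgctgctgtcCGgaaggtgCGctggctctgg

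Mean methylation was lower after Cre. Over the 395 CpGs the Cre samples were at 28.9%, 29.7% and 30.4% and the mock samples at 43.7%, 42.8% and 44.1%. All Cre samples lay below all mock samples. The means were 29.7% ± 0.752 (SD, n = 3) and 43.5% ± 0.65 (SD, n = 3), a difference of -13.8 percentage points with an SE of 0.574, and Cre samples kept 68.3% of the mock level. A two-sided exact permutation test gave p = 0.1, the smallest p that 3 against 3 samples allow. The difference between the medians over CpGs was larger, at -22.5 percentage points. The non-transduced TTKO samples of day 0 were at 41.5% ± 0.505 (SD, n = 3), and the mock samples of day 17 lay 2.05 percentage points above them with no overlap (exact permutation p = 0.1). Loss after Cre is therefore given against the mock samples of the same day throughout.

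Of the 395 CpGs, 217 were lower after Cre and 2 were higher at an adjusted p under 0.05 (quasi-binomial model on methylated and unmethylated reads, Benjamini-Hochberg over all tested CpGs), which is 54.9% and 0.506% of those tested. Another 176 CpGs were not called. Every Cre sample lay below every mock sample at 244 CpGs, or 61.8%, and above at 4. Of the 217 lower CpGs, 167 differed by at least 10 percentage points. Across all CpGs the difference ran from -61.8 to 2.69 percentage points with a median of -9.85.

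**Figure D1:**
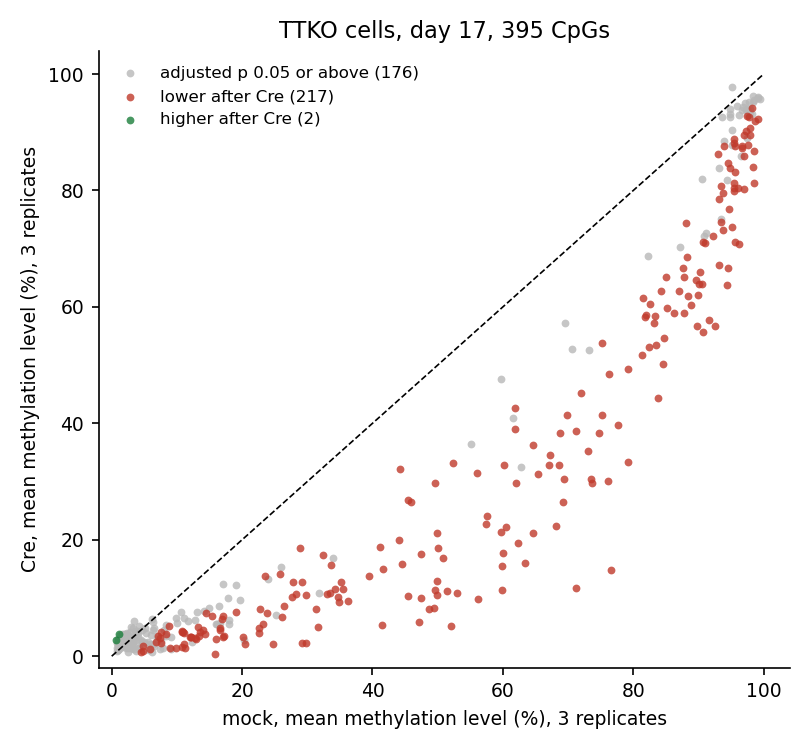
Each point is 1 of 395 CpGs, with the mean methylation level (%) of the 3 mock samples on the x axis and of the 3 Cre samples on the y axis at day 17, coloured by its call, and the dashed line marks equal levels. The 217 CpGs lower after Cre form an arc under the line that is deepest at intermediate mock levels and returns towards it near 100%.

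Calls depended on where a CpG started. Of the 154 CpGs at 50% or more at day 0, 111 were lower, which is 72.1%, and none was higher. Of the 111 CpGs from 10% to under 50%, 85 were lower, or 76.6%. Of the 130 CpGs under 10%, 21 were lower, or 16.2%, and 2 were higher. In that last group the median difference was -0.87 percentage points.

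The share of the mock level that was kept changed with the day 0 level and was lowest at intermediate levels. CpGs under 20% were at 3.38% ± 0.126 after Cre and 7.54% ± 0.394 in mock samples (SD, n = 3) and kept 44.8%. Incomplete bisulfite conversion could reach such levels, so the higher share in this bin is not read as retention. CpGs between 20% and 40% at day 0 were at 11.04% ± 0.528 (SD, n = 3) after Cre and 33.4% ± 1.67 (SD, n = 3) in mock samples, and so kept 33.1%. Between 40% and 60% the values were 21.8% ± 1.36 and 56.6% ± 3.69, with 38.5% kept, and this bin had the largest difference, -34.8 percentage points. From 60% to 80% the Cre samples kept 60.1%. CpGs from 80% to 100% went from 93.6% ± 0.738 in mock to 79.5% ± 1.38 after Cre and kept 85.0%. Cre and mock samples did not overlap in any of the 5 bins, and within each bin the ratio to all other CpGs moved with no overlap (exact permutation p = 0.1 for each, adjusted p = 0.1 over the 5 bins). Across the 154 CpGs at 50% or more, the kept share went with the day 0 level (Pearson's r = 0.869, Spearman's rho = 0.912), a description over CpGs that share libraries and amplicons.

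**Figure D2:**
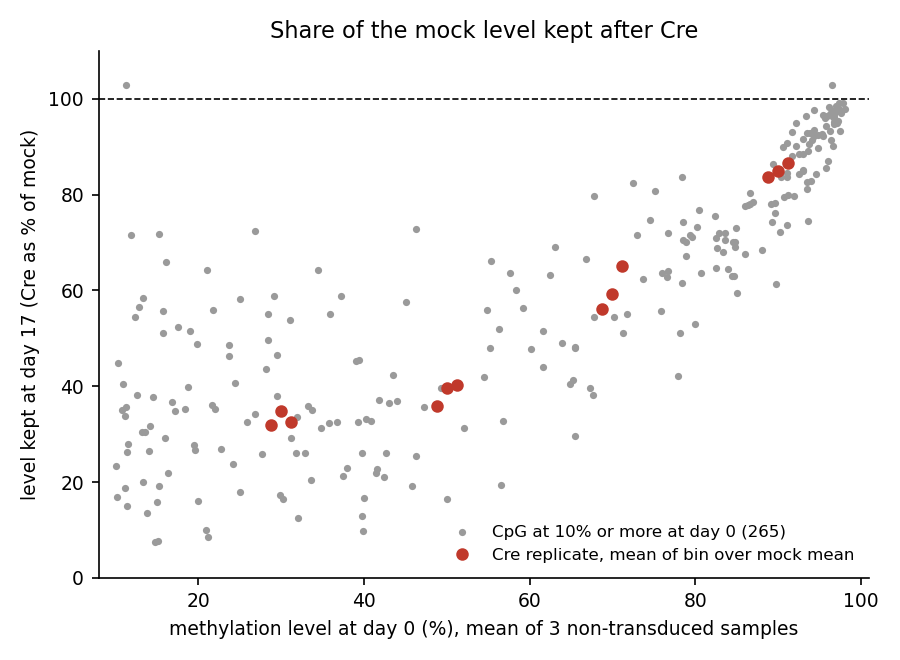
The x axis is the methylation level (%) at day 0, the y axis the Cre level as a percentage of the mock level at day 17. Grey points are the 265 CpGs at 10% or more at day 0, red points the 3 Cre replicates averaged over bins of 20 percentage points, which sit lowest between 20% and 40%, at 31.9% to 34.9%, and highest above 80%, at 83.6% to 86.5%.

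Region classes differed in how much methylation remained. They also differed in where they started, with day 0 means from 4.61% in UMRs to 95.2% in the methylated island. Constitutive LMRs lost the most in absolute terms: the 49 tested CpGs were at 35.7%, 37.9% and 39.01% in the Cre samples and at 69.5%, 65.6% and 67.0% in the mock samples, a difference of -29.8 percentage points, and 41 were lower. Constitutive LMRs of the CTCF set kept the smallest share, 44.5%, with means of 16.2% ± 0.539 after Cre and 36.4% ± 1.7 in mock samples (SD, n = 3), and 17 of 23 CpGs were lower. CTCF is an insulator protein that folds chromatin into loops. In the REST set, named for the repressor of neuronal genes, the level went from 20.5% ± 0.676 to 10.7% ± 0.235 (SD, n = 3). Only 35 of its 98 CpGs were lower, under the 54.9% of all CpGs, and 1 was higher.

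ES-specific LMRs kept 63.1%, with 32.4% ± 1.71 after Cre and 51.4% ± 1.46 in mock samples (SD, n = 3), and 49 of 64 CpGs were lower. The Zbtb20 exon supplied 13 of the 64 CpGs and kept 95.2%, while the other 5 amplicons of the class kept 22.1% to 50.8%. By the median over amplicons ES-specific LMRs kept 44.3%, below the 51.1% of constitutive LMRs and the 52.4% of the REST set, so the order of these classes depends on how CpGs are weighted. It also changed with the start. Over all their CpGs constitutive LMRs, ES-specific LMRs and the REST set kept 55.7%, 63.1% and 52.2%. Among CpGs from 20% to under 50% at day 0 they kept 24.8%, 33.8% and 43.3%. From 50% to under 80% they kept 54.9%, 50.5% and 64.9%. Differences between classes within these ranges were not tested. Each of the 22 FMR CpGs was lower, and the class went from 91.5% ± 0.855 to 66.6% ± 1.66 (SD, n = 3). NP-specific LMRs, which are still methylated in stem cells, were at 93.2% ± 0.864 in mock samples and 80.2% ± 1.51 after Cre (SD, n = 3), with 26 of 39 CpGs lower. Their day 0 mean was 90.8%, against 86.6% in FMRs. The single methylated CpG island kept 94.9%, with 4 of 12 CpGs lower. The single region listed as a methylated UMR, near Tuba3a, kept 82.8%, with all 6 of its CpGs lower.

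UMRs were low in both groups, at 2.93% ± 0.0394 after Cre and 4.71% ± 0.687 in mock samples (SD, n = 3). Of their 82 CpGs 17 were lower and 1 was higher. An intergenic UMR 8537 bases from Id3, an inhibitor of basic helix-loop-helix factors, held 7 of those 17 and went from 10.7% in mock to 3.76% after Cre. All 9 classes had Cre samples below mock samples without overlap (exact permutation p = 0.1 each, adjusted p = 0.1 over the 9 classes). With the median over CpGs in place of the mean, the difference was -0.51 percentage points in UMRs (p = 0.2, exact permutation test), -5.89 in the REST set and -32.1 in ES-specific LMRs. Relative to all other tested CpGs, a comparison added after the values were seen, the class ratio moved without overlap between Cre and mock in 8 classes (exact permutation p = 0.1, adjusted p = 0.112), while that of UMRs overlapped (p = 0.4). It moved down in the 3 constitutive LMR sets and the ES-specific LMRs, by 0.642 to 0.908 times, and up in FMRs, the methylated UMR, NP-specific LMRs and the methylated island, by 1.08 to 1.43 times.

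**Figure D3:**
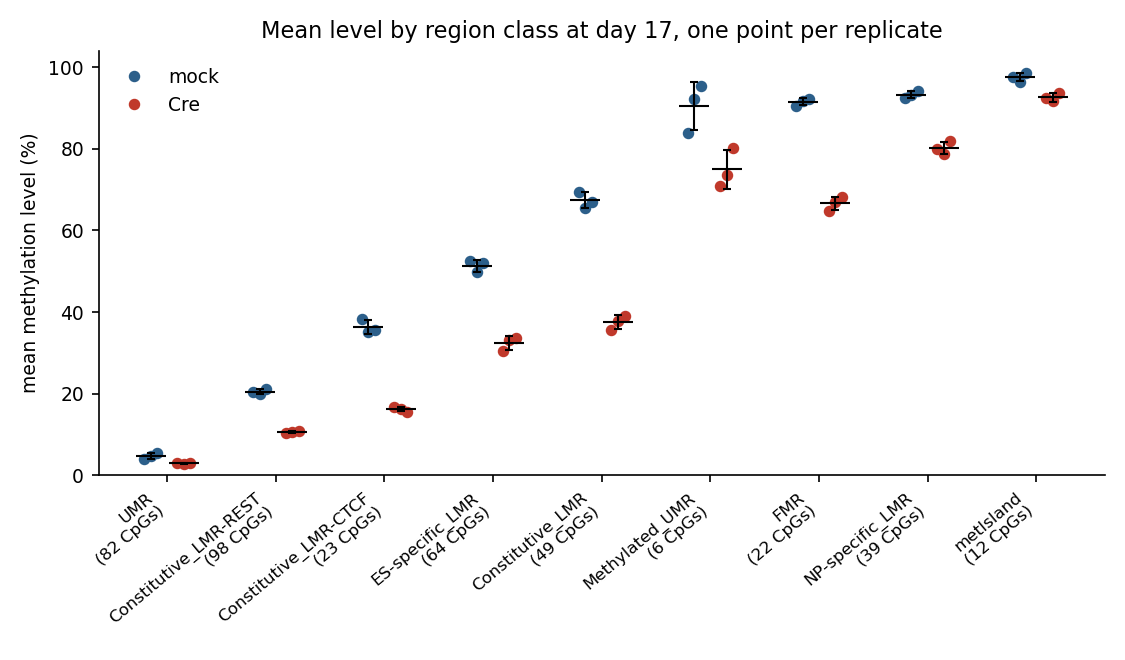
Mean methylation level (%) at day 17 on the y axis for the 9 region classes on the x axis, with 1 point per replicate (mock blue, Cre red) and the mean with its SD in black. In each class the 3 Cre points lie under the 3 mock points, with the widest gap in constitutive LMRs and the narrowest in UMRs.

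Classes also differed among the CpGs at 80% or more at day 0, where their starts were closer but not equal. FMRs there kept 74.5%, from 92.4% ± 0.738 in mock to 68.8% ± 1.0 after Cre (SD, n = 3), over 19 CpGs in 5 amplicons. NP-specific LMRs kept 88.1%, from 95.2% ± 0.738 to 83.9% ± 1.29 (SD, n = 3), over 35 CpGs in 7 amplicons. At day 0 these FMR CpGs were at 87.9% and the NP-specific ones at 93.1%, and across the 103 CpGs at 80% or more the kept share went with the day 0 level (Pearson's r = 0.881, a description over CpGs that share amplicons). The part of that starting gap in the class difference was not tested. Per Cre replicate, divided by the mean of the mock samples, the kept share was 73.3% to 75.5% in FMRs and 86.9% to 89.6% in NP-specific LMRs, and it overlapped in no replicate. The FMR to NP-specific ratio was lower after Cre in all samples (exact permutation p = 0.1, adjusted p = 0.12 over 6 pairs of classes, pairs chosen after the values were seen). ES-specific LMRs kept 91.3% and constitutive LMRs 77.2% in this set. Of the 16 ES-specific CpGs 13 were those of the Zbtb20 exon, which kept 95.2%. The amplicons of the class in Zfp704 and Calhm2 kept 72.6% and 70.1%. By the median over amplicons the class kept 72.6%, below constitutive LMRs (74.5%), FMRs (75.1%) and NP-specific LMRs (85.9%). The pairs are weighted by CpG, so those with ES-specific LMRs lean on the Zbtb20 exon. Of the 6 pairs 5 moved apart without overlap, and ES-specific against NP-specific LMRs overlapped (exact permutation p = 0.3, adjusted p = 0.3). Single amplicons did overlap: they kept 68.1% to 85.6% in the 5 FMRs and 79.5% to 93.5% in the 7 NP-specific LMRs. The FMR amplicons at the ends of that range were those in Atp2b2, a plasma membrane calcium pump, with 68.1%, and 1 of the pair in Traf3, a signalling adaptor of TNF receptors, with 85.6%.

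By amplicon, with reads summed over CpGs, 55 of 63 were lower after Cre, or 87.3%, and none was higher (same model, Benjamini-Hochberg over amplicons). The called amplicons kept 16.1% to 95.2% of their mock level, with a median of 55.9%. The other 8 were 4 UMRs and 4 constitutive LMRs of the REST set, and their mock levels were only 2.42% to 8.12%. Among CpGs at 50% or more, the 30 amplicons with at least 2 such CpGs differed in mean kept share with an SD of 14.8 percentage points, against 10.4 between CpGs of the same amplicon.

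The Cacng7 intron, an ES-specific LMR, lost the largest share among amplicons with at least 4 tested CpGs and a day 0 level of 20% or more. Its mean level was 9.09%, 9.32% and 9.1% in the Cre samples and 47.1%, 35.9% and 41.4% in the mock samples. The Cre samples were closely alike and far under the widely spread mock samples. All 6 CpGs were lower, the kept share was 22.1%, and the amplicon changed by a log2 odds ratio of -2.88 with an SE of 0.20 (adjusted p = 1.02e-05). The amplicon 32654 bases from Tram1, a translocon-associated membrane protein, kept 32.0%, with 4 of 4 CpGs lower. The one 29173 bases from Gsx1, a homeobox transcription factor of the developing brain, kept 33.9%, also with 4 of 4 lower. The amplicon in Slx1b, a structure-specific nuclease subunit, held 20 CpGs, of which 15 were lower, and kept 40.9%.

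Among amplicons with at least 4 tested CpGs and a day 0 level of 20% or more, the Zbtb20 exon, listed as an ES-specific LMR, lost the smallest share. Its mean level was 89.5%, 92.4% and 92.3% in the Cre samples and 94.0%, 96.8% and 97.3% in the mock samples. The groups did not overlap but were close, and the exon kept 95.2% (log2 odds ratio -1.12, SE 0.32, adjusted p = 0.0104). Only 3 of its 13 CpGs were lower. The lowest was chr16:43609668-43609669 at 80.3% ± 8.83 after Cre against 97.0% ± 1.98 in mock samples (SD, n = 3). In the AU022751 island the Cre samples were at 92.4%, 91.6% and 93.7% and the mock samples at 97.7%, 96.5% and 98.6%. They were again apart by a few percentage points (adjusted p = 0.000748), and 4 of 12 CpGs were lower. The amplicon 190002 bases from Irx4, an Iroquois homeobox factor, kept 93.5% with 6 of 10 CpGs lower. The amplicon in an intron of Fgfr2, a fibroblast growth factor receptor, kept 85.9% with 5 of 6 lower.

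In the same set of amplicons, that in Akap6 had the widest spread between its CpGs, with a kept share from 17.4% to 90.7%. The CpG chr12:54133774-54133775 was at 8.61%, 8.37% and 12.3% in the Cre samples and 58.4%, 46.7% and 63.7% in the mock samples, a wide gap with a log2 odds ratio of -3.69 (SE 0.68, adjusted p = 0.00289). At chr12:54133829-54133830, in the same amplicon, the Cre samples were at 89.1%, 79.7% and 77.3% and the mock samples at 81.8%, 92.9% and 96.7%. There the groups overlapped (adjusted p = 0.287). The remaining CpGs, chr12:54133624-54133625 and chr12:54133838-54133839, kept 80.6% and 83.7% and were not called. The amplicon had 516 to 1112 reads per CpG. The CpG that lost the most was also the lowest at day 0, 29.9% against 75.1% to 91.0% for the other three. Its mock mean of 56.2% stood far above that day 0 level, and by capture, against day 0, it kept 30.2%.

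**Figure D4:**
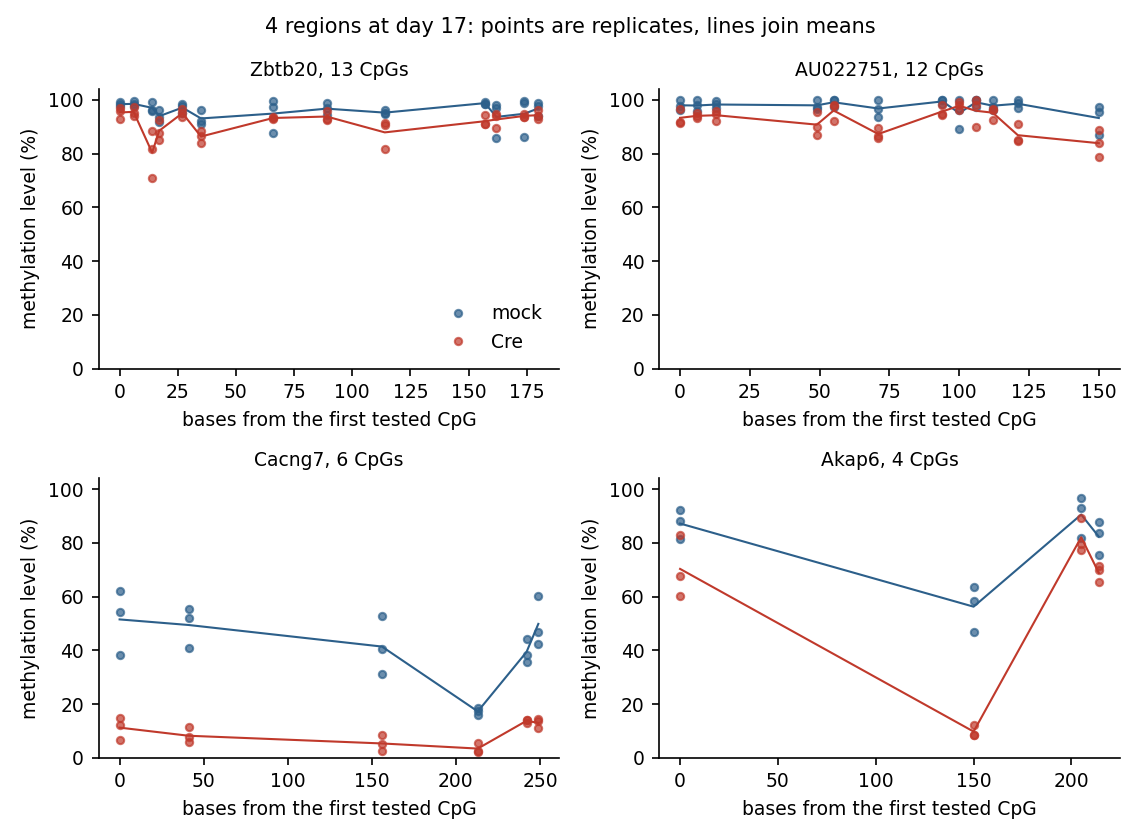
Methylation level (%) on the y axis against distance in bases from the first tested CpG, for 4 amplicons at day 17. Points are the 3 mock (blue) and 3 Cre (red) replicates and lines join the means, which run close together near 90% in Zbtb20 and AU022751, far apart in Cacng7, and far apart at 1 CpG only in Akap6.

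Single CpGs were chosen by the share of the mock level lost, so their loss is a description. The windows that follow show 30 bases around each, with only the measured CG in capitals, first the 6 that began at 50% or more and lost the most, then the 6 that lost the least, at most 1 per amplicon.
near Col1a1: agcgtctgtgctgaCGtggccgcgcccctc
near 3830408C21Rik: tttttttgtttttcCGtgaactattcccat
near 2700060E02Rik: tgtttttgttttgtCGgatctgatctgacc
near Slc29a4: ggattctaggcaggCGgtttactgctgagc
St7 intron: ggagagcttgtgccCGtggctcactgtgct
Zfp704 intron: tcctagtatatgtaCGgacgttctgggcag
AU022751 exon: tgcagctgcggcttCGgctccggctccgtg
Zbtb20 exon: atcgtgtcacagaaCGtgggcgatgtgttc
near Irx4: taaatcacagaggcCGgctcaccgtgcgca
Aff3 intron: tttatgtgtcctaaCGcgtgtgctcagggg
Fgfr2 intron: acgggcccagactgCGtccggagctgctgg
near Prl5a1: tcgttttaatcatgCGcatgttgacaaatg

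The CpG with the largest share lost from a high start was chr11:94734426-94734427, 63112 bases from Col1a1, the gene of a fibrillar collagen chain, in a constitutive LMR. It was at 16.3%, 15.1% and 12.9% in the Cre samples and at 94.3%, 67.9% and 67.6% in the mock samples. One mock sample stood far above the others and above the 56.5% of day 0, yet no sample of either group came near the other (log2 odds ratio -4.46, SE 0.80, adjusted p = 0.00246). It kept 19.3%. Next was chr13:107863525-107863526, 39772 bases from 3830408C21Rik, with 17.8% ± 4.44 after Cre and 60.1% ± 10.9 in mock samples (SD, n = 3).

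The remaining 4 of this set kept 31.2% to 39.6%. The CpG chr14:20659185-20659186 of the CTCF set was at 19.5% ± 2.41 after Cre against 62.3% ± 4.11 (SD, n = 3). The CpG chr5:143170690-143170691 of the REST set, 7365 bases from the transporter gene Slc29a4, was at 22.4% ± 2.07 against 68.2% ± 2.73 (SD, n = 3). In an intron of St7, chr6:17856304-17856305 had a wide spread of 13.9%, 25.3% and 40.1% after Cre against 78.6%, 69.7% and 59.2%. In an intron of the zinc finger gene Zfp704, chr3:9601631-9601632 was at 30.1% ± 7.84 against 76.1% ± 9.28 (SD, n = 3). None of the 6 had overlapping groups, and adjusted p ran from 0.000705 to 0.006.

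The 6 CpGs with the smallest share lost began at 94.3% to 97.8% and kept 96.3% to 103%. None was called, with adjusted p from 0.154 to 0.971. In AU022751, chrX:5659227-5659228 was at 98.0%, 96.2% and 99.0% in the Cre samples and 89.2%, 96.1% and 99.97% in the mock samples. The Cre samples lay inside the range of the mock samples. Mock replicate 1 stood apart at 89.2%, and the kept share above 100% depends on that library. In Zbtb20, chr16:43609828-43609829 was at 94.0% ± 0.473 and 94.8% ± 7.42 (SD, n = 3), and mock replicate 1 stood apart at 86.2%. Without that library this CpG was called lower (adjusted p = 0.023). The others lay near Irx4, in introns of Aff3, a nuclear protein of the AF4/FMR2 family, and of Fgfr2, and near the prolactin family gene Prl5a1. At the Aff3 CpG mock replicate 1 was again the lowest mock sample, at 88.2% against 96.7% and 99.5%. At the Fgfr2 and Prl5a1 CpGs the Cre samples were still below the mock samples without overlap, 93.0% ± 0.532 against 96.2% ± 0.691 and 93.9% ± 0.855 against 97.5% ± 1.49 (SD, n = 3).

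From starts between 10% and 50%, 4 named CpGs fell to means of 2.13% to 5.11%. The CpG chr9:99464451-99464452 in an intron of Armc8 went from 29.2% ± 2.13 in mock to 2.21% ± 1.23 after Cre (SD, n = 3), with as few as 225 reads in a sample. The CpG chr19:54250414-54250415, 126942 bases from Adra2a, an adrenergic receptor gene, was at 0.997%, 2.92% and 3.05% after Cre and 38.7%, 25.1% and 25.8% in mock samples. The CTCF-set CpGs chr10:3270035-3270036 near Ipcef1 and chr1:38844457-38844458 near Lonrf2 kept 8.6% and 9.83%. Each of the 4 passed the test, with adjusted p from 0.000192 to 0.0234, but the Armc8 CpG missed it when any of 4 libraries was left out. Day 0 levels of the Armc8 and Adra2a CpGs were 14.8% and 15.2%, well below their mock levels of day 17. By hybrid capture, described further on, the 4 CpGs kept 14.5% to 33.3% of their day 0 level, more than the 7.58% to 9.83% kept here against mock samples.

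At the other end of that range, chr2:143033140-143033141, 125691 bases from Otor, kept 72.7%, with 31.5%, 31.7% and 33.4% after Cre and 46.1%, 40.2% and 46.5% in mock samples (adjusted p = 0.00516). It was not called in limma on log odds (adjusted p = 0.121) or with dispersion from all 39 TTKO samples (0.0644). The other 3 were not called and their groups overlapped. They were chr3:88129184-88129185 in the UMR of 0610031J06Rik, at 6.31% ± 2.7 and 6.13% ± 3.4, chr2:146052444-146052445 near Insm1, a zinc finger factor of neuroendocrine cells, at 7.62% ± 0.902 and 10.6% ± 7.61, and chr2:23146926-23146927, at 12.4% ± 1.43 and 17.1% ± 6.14 (Cre and mock, SD, n = 3). In each of the 3, mock replicate 1 was the lowest mock sample, and without it the CpG near Insm1 (adjusted p = 0.0238) and that on chr2:23146926-23146927 (0.0281) were called lower. The latter lies in an amplicon that shares 75 runs of 25 bases with another amplicon of the set, near Zfp947, so its reads could in part have been assigned to the wrong copy.

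The CpG nearest the median difference of its class shows what was typical. For FMRs it was chr12:112492747-112492748 in an intron of Traf3, at 66.8%, 67.5% and 67.0% after Cre and 96.5%, 93.2% and 89.8% in mock samples (adjusted p = 0.000451). For constitutive LMRs it was chr12:54133872-54133873 in Akap6, at 59.0% ± 6.44 against 87.8% ± 3.6, and for ES-specific LMRs chr7:133836136-133836137 in a coding exon of Slx1b, at 4.04% ± 1.57 against 22.6% ± 5.96 (SD, n = 3). Both were lower, as was chr6:125236599-125236600 near Tuba3a, at 83.9% ± 5.64 against 94.9% ± 1.42 (SD, n = 3), a call that was lost without mock replicate 2 (adjusted p = 0.0598) or mock replicate 3 (0.126). The typical NP-specific CpG, chr17:63460473-63460474 in an intron of the F-box gene Fbxl17, was at 86.0% ± 1.98 against 96.5% ± 2.96 (SD, n = 3) and missed the threshold with adjusted p = 0.0688. The typical CpGs of the CTCF set (chr10:12738476-12738477), the REST set (chr9:99464290-99464291), the methylated island (chrX:5659133-5659134) and the UMRs (chr17:34088061-34088062 in B3galt4) were not called either, with adjusted p from 0.0576 to 0.553.

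Only 2 CpGs were called higher after Cre, both at levels of a few percent. At chr9:99118909-99118910, in a REST-set LMR 24978 bases from Cep70, the Cre samples were at 2.63%, 2.45% and 3.02% and the mock samples at 0.0627%, 1.34% and 0.703%. At chr10:36694001-36694002, in the UMR 349 bases from Hdac2, a histone deacetylase gene, they were at 4.03%, 4.34% and 2.88% against 0.274%, 1.64% and 1.42%. The groups did not overlap at either, and adjusted p was 0.0432 and 0.0495. At day 0 the means were 1.71% and 3.13%, between the group means of day 17, but single day 0 samples reached above every Cre sample at both CpGs. The Cep70 call was lost in 12 and the Hdac2 call in 13 of 14 alternative fits.

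Wild-type cells gave a measure that had no part in choosing these CpGs. In wild-type mock samples at day 17 the 6 CpGs with the largest loss were at 7.43% to 23.9%, although they stood above 50% in TTKO cells. The 6 with the smallest loss were at 87.9% to 95.6% in wild type. Over the 154 CpGs at 50% or more in TTKO cells at day 0, the 36 that were under 30% in wild-type mock samples kept 57.8% after Cre, the 30 between 30% and 70% kept 67.1% and the 88 above 70% kept 86.6%. The ratio of the lowest to the highest of these groups was lower after Cre without overlap of samples (exact permutation p = 0.1), a grouping chosen after the values were seen. CpGs low in wild type also began lower in TTKO cells. With the start limited to 80% or more, the groups kept 74.2% over 6 CpGs, 73.5% over 14 and 87.5% over 83. The day 0 means of these groups still differed, at 85.6%, 86.6% and 92.7%, and the part of that gap was not tested. Across the 154 CpGs Pearson's r between the wild-type level and the kept share was 0.74, and 0.533 across the 103 that began at 80% or more, where r with the day 0 level was 0.881, as a description over CpGs that share amplicons.

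Kept shares were also grouped by local sequence. Among the 154 CpGs at 50% or more, those with A, C, G or T after the CG on either strand kept 77.4%, 78.6%, 77.9% and 75.3%. Median kept shares of these groups lay between 77.7% and 78.9%. By density, the 30 CpGs with 2 to 3 other CpGs within 100 bases kept 72.4% and the 48 with at least 7 kept 83.0%, the latter in 9 amplicons only. By location, CpGs in coding exons kept 90.5%, those in introns 75.03% and intergenic ones 73.3%, but the 30 exonic CpGs came from 3 amplicons, chiefly Zbtb20 and AU022751. By distance to the nearest transcription start site, the 28 CpGs at 1000 to 10000 bases kept 76.5% and the 120 farther away kept 77.4%. None of these groupings was tested, as their CpGs share amplicons and differ in day 0 level.

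The same TTKO line was also profiled by hybrid capture (SureSelect), in libraries that the amplicon comparison did not use, with the authors' pooled level per day. By the study's methods the captured DNA came from the same time points. Capture is thus a second assay that may share cultures with the amplicon samples. Of the 395 CpGs 252 were in both. Their Cre level at day 17 was 18.8% by amplicon and 15.1% by capture, and their day 0 level 30.0% and 26.0%. Over the 64 shared CpGs at 50% or more at day 0, the median kept share was 69.6% by amplicon, against mock samples, and 62.7% by capture, against day 0. The kept shares went together across these CpGs (Pearson's r = 0.93, Spearman's rho = 0.916), a description over CpGs of 1 cell line. In the Akap6 amplicon the capture levels went from 38.1% to 11.5% at chr12:54133774-54133775, while at chr12:54133829-54133830 capture kept 92.3%, so the split between these neighbours was present there too.

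**Figure D5:**
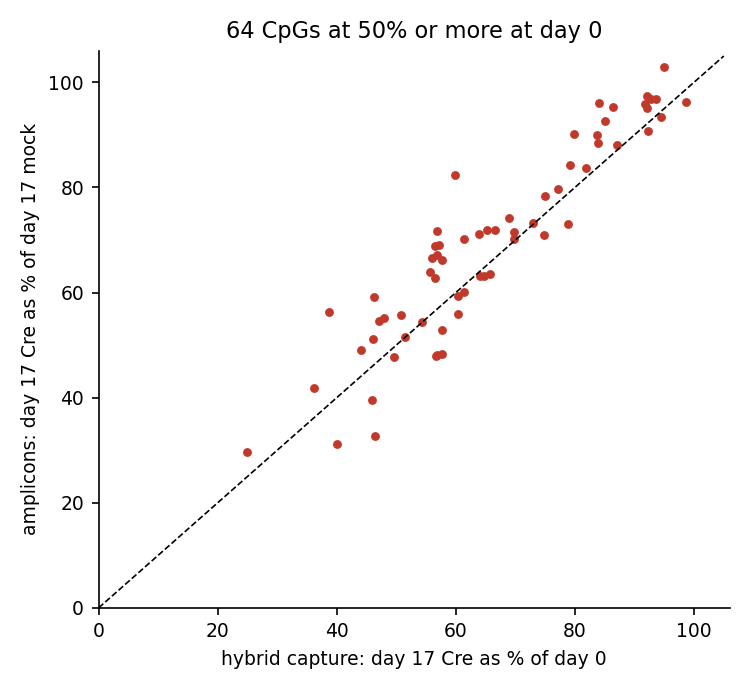
Each point is 1 of 64 CpGs at 50% or more at day 0, with the day 17 Cre level by hybrid capture as a percentage of its day 0 level on the x axis and the amplicon Cre level as a percentage of the mock level on the y axis, and the dashed line marks equality. The points run along the line, with 44 of the 64 above it.

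Days 13 and 29 place the comparison in time, each against mock samples of its own day. Each Cre sample was divided by the mean of those mock samples. The spread of the mock samples therefore does not enter the SD, the overlap or the p of the kept shares. Over 391 shared CpGs the Cre samples kept 74.4% ± 0.742 at day 13 and 68.5% ± 1.75 at day 17 (SD over Cre samples, n = 3), with no overlap (exact permutation p = 0.1). Over 380 CpGs they kept 68.7% ± 1.89 at day 17 and 63.0% ± 0.513 at day 29, also with no overlap (exact permutation p = 0.1). For single CpGs the change of the Cre effect from day 13 to day 17 passed the threshold at 0 of 391 (0%) in the quasi-binomial model, with 28 at an unadjusted p under 0.05, 22 of them in the direction of more loss. In limma on log odds it also passed at 0, with 18 unadjusted. From day 17 to day 29 it passed at 1 of 380, or 0.263%.

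That CpG was chr3:65259997-65259998 in a constitutive LMR 51182 bases from 4931440P22Rik. At day 17 it was at 14.3%, 17.0% and 16.3% after Cre and 43.3%, 43.3% and 47.0% in mock samples, and at day 29 at 3.23% ± 0.657 and 42.5% ± 1.21 (SD, n = 3). The mock level held while the Cre level fell further (log2 odds ratio of day 29 against day 17 -2.29, SE 0.29, adjusted p = 0.00153). Of the 6 named CpGs with the largest loss, the 5 measured at day 29 kept 5.46% to 38.0% by then. The 6 with the smallest loss kept 91.9% to 98.8% at day 29 and 93.1% to 100.4% at day 13.

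Wild-type cells, with intact Tet genes and the same Cre treatment, started from a lower level. Over 389 shared CpGs wild-type cells went from 30.1% ± 0.661 in mock to 20.0% ± 0.992 after Cre, and TTKO cells from 43.5% ± 0.606 to 30.0% ± 0.763 (SD, n = 3). The difference was -10.1 percentage points in wild type and -13.5 in TTKO, a gap of -3.39 with an SE of 0.889 (exact permutation p = 0.1). The kept share was 66.4% ± 3.29 in wild type and 68.9% ± 1.75 in TTKO cells and overlapped between them (exact permutation p = 0.3). These shares, too, leave out the spread of the mock samples. On the log odds scale 0 of 389 CpGs (0%) differed between the lines at an adjusted p under 0.05 in the quasi-binomial model, with 43 at an unadjusted p under 0.05, of which 34 had more loss in TTKO cells on this scale, and in limma on log odds 0 passed with 38 unadjusted. As a share the order was the other way for the 154 CpGs at 50% or more in TTKO cells at day 0, where the median kept was 66.8% in wild type and 77.9% in TTKO cells, a difference that was not tested. The lowest adjusted p, 0.0604, was that of chr10:3270035-3270036 near Ipcef1, named above, which was at 7.14% in wild-type mock samples and 24.8% in TTKO mock samples.

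Of the 405 CpGs, 10 lacked a level in a Cre sample and were not tested. The 6 in Cradd, an adaptor of cell death signalling, had 4 reads each in Cre replicate 3. The 4 in Trak1, a kinesin adaptor gene, had 60 to 61 reads in Cre replicate 1. In the samples with a level, both Cre samples lay below the 3 mock samples at 5 of the 6 Cradd CpGs. The same held at 1 of the 4 in Trak1, and the groups overlapped at the rest. Among the 395 tested CpGs every Cre sample lay below every mock sample at 244, or 61.8%. With a Cre sample missing, such a separation is easier to reach, so these counts cannot be set directly against that share.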

How the data were processed

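Per the labels and the study's methods, the authors bisulfite-converted genomic DNA, amplified 88 regions, sequenced them on a MiSeq and aligned reads to mm9 with QuasR (Rbowtie). Levels came from AmpliconBiSeq with a conversion filter, and CpGs missing at day 0 or more than once later, and a variable amplicon, were dropped. The deposited amplicon tables hold, per CpG and sample, the coverage as a read count and the methylation level as a fraction, and the authors set a level to missing under 100 reads. The deposited capture table holds coverage counts and levels in percent, pooled per day by the authors. Its other columns, and the authors' inferred rates and their derived columns, were not used. PCR reads carried no molecular identifiers, so coverage overstates the number of molecules.

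Coverage times level gave whole methylated reads for 100% of levels within a tolerance of 0.01 reads. Each CpG was fitted in R 4.3.3 by logistic regression with quasi-binomial errors (two-sided), 0.5 added to each count, dispersion moderated with limma 3.58.1 and not allowed under 1. The threshold was an adjusted p of 0.05. Sample means were compared by exact permutation tests. Positions were placed on NCBIM37 (mm9) with GENCODE M1, and all 405 were CpGs there. Named CpGs were those with the largest and smallest share lost (6 and 6 at 50% or more at day 0, 4 and 4 from 10% to under 50%, 1 per amplicon), the CpG nearest each class median and those higher after Cre. Named amplicons, with at least 4 tested CpGs and 20% at day 0, were the 4 at each end and the 1 with the widest range. The members and lists were chosen with earlier results of these data known. Fits were tested on simulated data. Alternatives were coverage minimums, the count added, other dispersions, limma on log odds, other averages, the replicate block and leaving out each sample.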

Additional observations from a re-analysis of the deposited data

Results flagged for a closer look

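One result stood out by a test of the difference between time points. At chr3:65259997-65259998 the effect of Cre was larger at day 29 than at day 17, by a log2 odds ratio of -2.29 (SE 0.29, adjusted p = 0.00153 by the quasi-binomial model, Benjamini-Hochberg over 380 CpGs). It kept 29.6% of the mock level at day 13, 35.7% at day 17 and 7.59% at day 29. The cause was not tested.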

How the results depend on the processing

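The 217 CpGs lower after Cre became 158 to 240 over the other fits and filters and 162 to 217 when a sample was left out, and 146 of the 217 were called in each of the 6 fits without a sample. Amplicons lower after Cre numbered 51 to 56. CpGs higher after Cre were not stable: 2 became 1 with at least 500 reads or with dispersion from all 39 TTKO samples, and 0 with at least 1000 reads, only the 330 CpGs measured in all TTKO samples, a difference of at least 10 percentage points, unmoderated dispersion, limma on log odds or the replicate block, and 0 to 1 when a sample was left out. The labels do not say whether same-numbered samples belong together. Their deviations correlated at -0.0756, -0.0192 and -0.0143, and no sample correlated best with its own number. Deviations from means of 3 samples cannot decide whether same-numbered samples shared a culture or a batch. With the replicate block 202 CpGs were lower, and the paired mean difference was -13.8 percentage points (exact sign-flip test, p = 0.25, the smallest it allows). The block changed no count of the comparisons between days or lines. CpGs whose effect differed between days 29 and 17 numbered 1 to 2 when a sample was left out, 2 without Cre replicate 2. The mean differences by class and day 0 bin kept their direction under all alternatives run. Their p-values say nothing about stability, as 3 against 3 samples cannot pass. The mean difference over all CpGs was -13.4 to -14.2 percentage points when a sample was left out. The median in place of the mean moved the difference of all CpGs to -22.5, of ES-specific LMRs from -19.0 to -32.1, of the REST set from -9.82 to -5.89, of UMRs from -1.78 to -0.51 (exact permutation p = 0.2) and of CpGs under 20% from -4.16 to -2.39 percentage points. The causes were not tested. Among the named CpGs, chr2:143033140-143033141 lost its call in 2 of 14 alternatives, chr6:125236599-125236600 in 3 of 13 (without mock replicate 2 adjusted p = 0.0598, without mock replicate 3 0.126) and chr9:99464451-99464452 in 5 of 12 (without Cre replicates 1, 2 and 3 in turn 0.0566, 0.0879 and 0.094, without mock replicate 3 0.0543). Of those not called, 6 gained a call in 9 fits in all, 3 of them without mock replicate 1: chr16:43609828-43609829 (0.023), chr2:23146926-23146927 (0.0281) and chr2:146052444-146052445 (0.0238). Without mock replicate 3 chr10:12738476-12738477 was called (0.0299). No call changed sign. CpGs under 10% rest on levels that incomplete bisulfite conversion could reach, and conversion was not analysed here.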
